A study of Mus musculus with 6 samples.

Results

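The genes described here are 35 genes of muscle excitation coupling, the machinery that turns an action potential of the muscle fibre into a release of calcium. They were taken by name from a list of triad, sarcoplasmic reticulum, ion channel and neuromuscular junction genes, and all 35 were found among the 54189 features of the RNA-seq table of mouse Achilles tendon.

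RNA-seq was performed on Achilles tendon of 4-week-old mice, with 1 library for each of 3 genotypes. Control mice carried floxed Dicer alleles (Dicer f/f) and no Cre. ScxHt mice carried 1 copy of Cre knocked in at Scx with both Dicer alleles wild type (Dicer +/+), and Dicer cKO mice carried the same ScxCre/+ allele with Dicer f/f. Scx encodes a transcription factor of tendon and ligament cells, so Cre acts mainly there, and both ScxCre/+ genotypes have 1 intact copy of Scx. All values below come from 1 library per genotype. A ratio therefore compares 2 libraries and has no replicate check, no test across animals was possible, and the intervals given cover counting error only.

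In a skeletal muscle fibre, the voltage sensor of the transverse tubule opens the ryanodine receptor of the sarcoplasmic reticulum across a junction called the triad. Calcium held in the reticulum by calsequestrin and related proteins then flows to the sarcomeres, and the calcium pump SERCA returns it. Fast fibres use SERCA1, calsequestrin 1 and the cytosolic buffer parvalbumin, whereas slow fibres use mainly SERCA2 and more calsequestrin 2. Most of these genes are expressed mainly in muscle fibres, which join the tendon at its muscle end.

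The libraries held 16244232 counts in Control, 15769301 in ScxHt and 14959399 in Dicer cKO. Dicer1 had 1919, 2025 and 1621 counts in the same order, so that Dicer cKO stood at 0.877 of Control after scaling, with a 95% counting interval of 0.821 to 0.938. Counts over the whole gene do not separate the floxed part from the rest. Scx had 1055, 686 and 371 counts and was lowest in Dicer cKO. The labelled tissue was visible in the table, since the 8 tendon genes fixed as markers, Col1a1 with the highest count among them, summed to 88877, 73161 and 49984 CPM, counts scaled by the library total. The 20 muscle fibre genes fixed as markers took 6.16% of all counts in Control, 3.28% in ScxHt and 10.4% in Dicer cKO, so every library held muscle RNA, the least in ScxHt and the most in Dicer cKO. In such bulk samples, fewer fibres and less RNA per fibre cannot be told apart.

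The 35 excitation coupling genes together had 79773 counts in Control, 57477 in ScxHt and 119202 in Dicer cKO. These sums were 0.491%, 0.364% and 0.797% of all counts, in the order of the muscle fibre genes. Expressed against the summed counts of the muscle fibre genes they were 7.97%, 11.1% and 7.69%. The sum per muscle count was thus highest in the library with the least muscle RNA and nearly the same in the other pair. Ttn gave most muscle fibre counts, 688745 of 1001014 in Control, 329060 of 516837 in ScxHt and 1062032 of 1549880 in Dicer cKO. The ScxHt/Control ratio of Ttn, 0.458, was below the median of the muscle fibre genes, 0.615, so this quotient rests largely on Ttn.

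Levels of different genes were compared as RPKM, the authors' values per length and depth. Atp2a1, which encodes SERCA1, was the most abundant of the 35 in each library, at 278 RPKM in Control, 228 in ScxHt and 522 in Dicer cKO. Casq1, which encodes calsequestrin 1, followed with 194, 185 and 409 RPKM. Both genes of the fast fibre store and pump therefore stood at the top in every genotype. Atp2a2 (SERCA2) had 137, 78.7 and 141 RPKM, and Hrc, a histidine-rich calcium-binding protein of the reticulum, had 66.2, 43.9 and 110. Pvalb, which encodes parvalbumin, had 43.2 RPKM in Control against 150 in ScxHt and 174 in Dicer cKO. It ranked below Srl and Hrc in Control and above Atp2a2 in both ScxCre/+ libraries. At the other end, the receptor subunits Chrne and Chrng did not exceed 3 counts in any library.

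**Figure D1:**
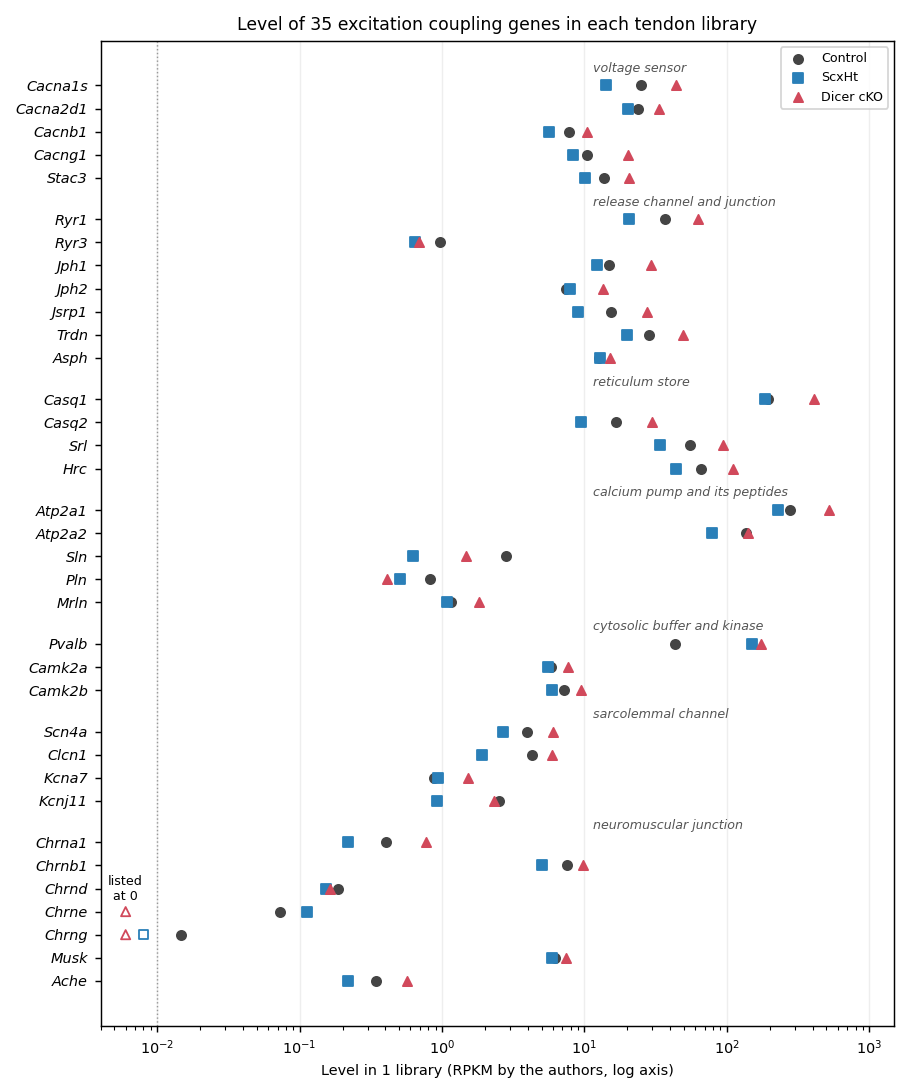
Each row is 1 gene and each point its RPKM in 1 library on a log axis, grouped by role, with open symbols for values listed at 0. The Dicer cKO triangles lie to the right of the other symbols for most genes, Atp2a1 reaches 522 RPKM, and Pvalb shows Control alone at the left with 43.2 RPKM.

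Sequence upstream of 4 of these genes is shown because they mark the contrasts that follow. Cacna1s, Casq1 and Atp2a1 were higher in Dicer cKO and lower in ScxHt than in Control, while Pvalb was higher than Control in both. The stretches were read from RefSeq promoter windows on GRCm38.p6, 5′ to 3′ on the gene's strand, and stop before the gene as RefSeq and GENCODE annotate it. Capitals mark CAGCTG, an E-box bound by myogenic factors, in the first 3 sequences, and a MEF2 box followed by CCGGAA, the N-box, in Pvalb.
Cacna1s (chr1:136052561-136052749, plus strand): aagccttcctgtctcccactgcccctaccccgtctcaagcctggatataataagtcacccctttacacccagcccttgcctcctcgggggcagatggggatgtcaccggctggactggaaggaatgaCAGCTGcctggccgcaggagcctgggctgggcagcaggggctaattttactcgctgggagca
Casq1 (chr1:172219896-172220145, minus strand): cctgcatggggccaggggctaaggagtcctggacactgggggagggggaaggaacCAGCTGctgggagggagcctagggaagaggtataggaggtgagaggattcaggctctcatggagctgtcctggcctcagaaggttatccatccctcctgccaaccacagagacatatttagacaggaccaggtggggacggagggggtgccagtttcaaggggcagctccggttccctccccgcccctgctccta
Atp2a1 (chr7:126463109-126463323, minus strand): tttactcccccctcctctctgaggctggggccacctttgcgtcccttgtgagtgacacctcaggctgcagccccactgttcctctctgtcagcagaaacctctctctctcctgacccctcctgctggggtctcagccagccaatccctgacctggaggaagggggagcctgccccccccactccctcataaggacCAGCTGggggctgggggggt
Pvalb (chr15:78206401-78206650, minus strand): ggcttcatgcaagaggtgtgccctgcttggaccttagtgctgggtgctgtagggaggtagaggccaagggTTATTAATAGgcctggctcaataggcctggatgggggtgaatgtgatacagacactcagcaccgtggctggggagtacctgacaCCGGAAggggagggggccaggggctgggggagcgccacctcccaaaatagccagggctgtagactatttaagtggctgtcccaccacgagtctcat
Windows of 250 bases before to 50 after the start were matched for 22 of the 35 genes, and both strands were searched. A gene was counted if any of its windows held the letters, and the number of windows per gene was not adjusted for. CAGCTG, which reads the same on both strands, was found for 10 of the 22 genes (45.5%), against 18.3% of 27025 genes. A MEF2 box was found for 3 of the 22 (13.6%), Casq2, Pvalb and Clcn1, against 3.70% of all genes. Casq2 and Clcn1 were lower in ScxHt than in Control, where Pvalb was higher, so this box was not particular to the pattern of Pvalb. CCGGAA was found for 2 of the 22 (9.09%), Pvalb and Chrne, against 16.7% of all genes. CAGCTG and CCGGAA share no end by which they could overlap. These are matches of letters, binding was not measured, and no link between the letters and the ratios was tested.

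Normalized counts were compared for genes with a mean normalized count over 50 in the pair of libraries, and a ratio above 1.67 or below 0.6 was called higher or lower. Of the 35 genes, 26 passed this minimum in all 3 comparisons. The 9 that did not were Sln, Pln, Mrln, Kcna7, Chrna1, Chrnd, Chrne, Chrng and Ache. In Dicer cKO/Control, 9 of the 26 were above the upper threshold, against 3.92% of the 13504 genes tested, and 0 were below the lower one, against 4.18%. The whole counting interval lay above 1 for 22 (21.5% of all genes) and below 1 for 1 (28.4%). The median log2 ratio of the 26 was 0.61, beside -0.03 over all genes. With the sparse genes that had counts in both libraries included, the median was 0.60.

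In ScxHt/Control, 1 of the 26 was above the upper threshold (3.07% of the 13563 genes tested) and 8 were below the lower one (4.73%). The whole interval lay above 1 for 1 gene (26.4% of all genes) and below 1 for 23 (23.7%). The median log2 ratio was -0.58, beside 0.02 over all genes. In Dicer cKO/ScxHt, 20 of the 26 were above the upper threshold (7.68% of the 13555 genes tested) and 0 below the lower one (5.68%), the whole interval lay above 1 for 25 (24.8%) and below 1 for 0 (30.5%), and the median log2 ratio was 1.23. Each of the 3 comparisons shares a library with each of the others, so they are not independent. Of the 26 genes, 22 had their highest normalized count in Dicer cKO and their lowest in ScxHt. The 4 that did not keep this order were Ryr3, Atp2a2 and Kcnj11, highest in Control, and Pvalb, lowest in Control. The order takes no account of counting error. Among the 22, the ScxHt/Control intervals of Jph2 and Musk held 1. Scaling by total counts put Jph2 at 1.07 and Asph at 1.02 in ScxHt/Control, so ScxHt was then not lowest for them.

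**Figure D2:**
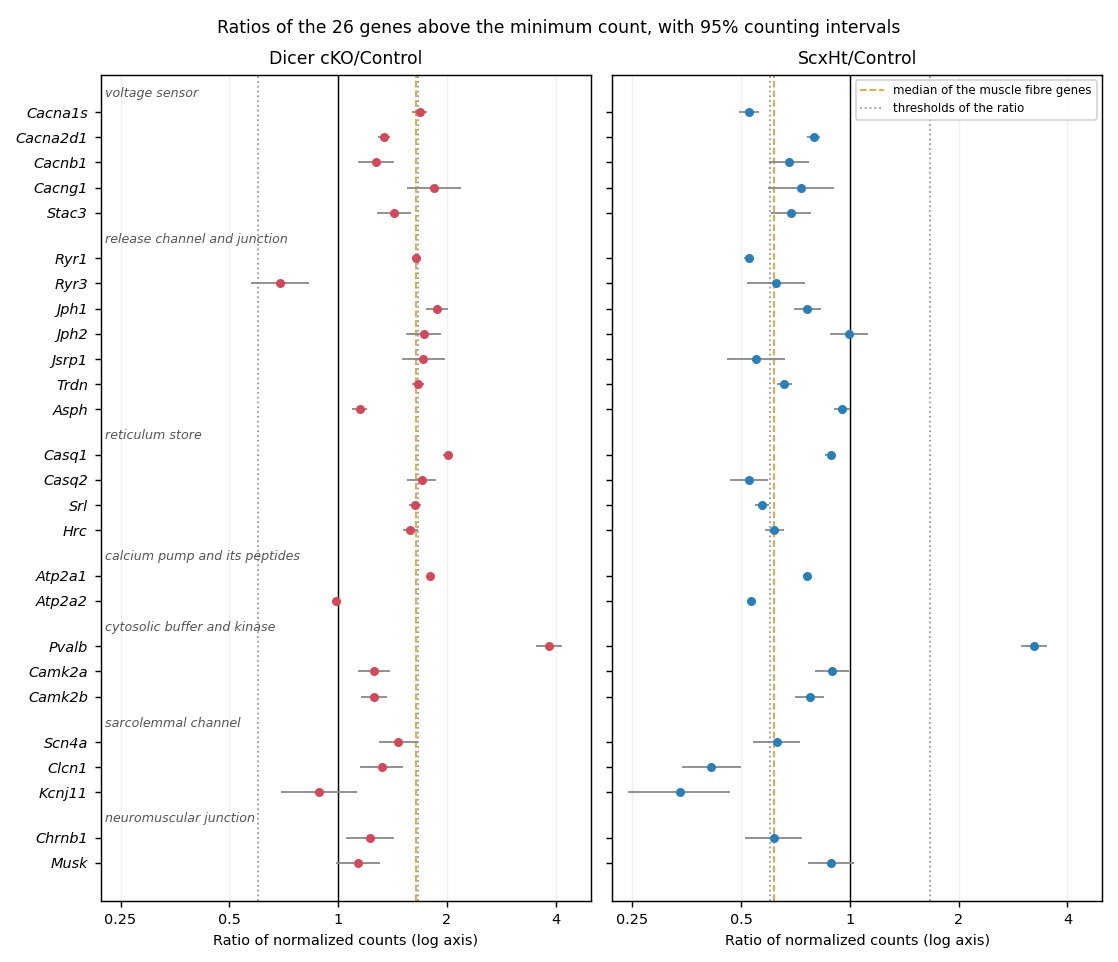
Points are ratios of normalized counts of the 26 genes on a log axis, bars are 95% counting intervals, dotted lines are the thresholds 0.6 and 1.67, and the dashed line is the median of the 20 muscle fibre genes (1.65 at the left, 0.615 at the right). Most genes cluster near the dashed line on each side, with Pvalb far to the right in both and Ryr3 and Kcnj11 to the left in Dicer cKO/Control.

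The voltage sensor genes were all higher in Dicer cKO and lower in ScxHt than in Control. Cacna1s, the pore and sensor subunit of the muscle calcium channel, had 2674 counts in Control, 1466 in ScxHt and 4331 in Dicer cKO. Its ratio to Control was 1.68 (1.60 to 1.77) in Dicer cKO, just past the upper threshold, and 0.525 (0.493 to 0.560) in ScxHt. Cacng1, the gamma subunit, had 213, 163 and 378 counts, with ratios of 1.84 (1.55 to 2.19) and 0.733 (0.594 to 0.903). These were the 2 genes of the group called higher in Dicer cKO. The auxiliary subunit genes Cacna2d1 (4758, 3936 and 6148 counts) and Cacnb1 (571, 404 and 700) had Dicer cKO/Control ratios of 1.34 and 1.27, under the threshold. Stac3, an adaptor that the sensor needs to work with the release channel, had 566, 406 and 778 counts and ratios of 1.43 (1.28 to 1.59) and 0.687 (0.604 to 0.782). Cacna1s was the only 1 of the 5 below the lower threshold in ScxHt. Gm37759 covers 20.0% of its exonic bases, and whether counting used strand is not given in the sources used here.

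Among the genes of the release channel and junction, the channel of mature muscle and its minor relative differed. Ryr1, the release channel of skeletal muscle, had 12972 counts in Control, 7108 in ScxHt and 20593 in Dicer cKO, with ratios to Control of 1.65 (1.61 to 1.69) in Dicer cKO and 0.525 (0.510 to 0.541) in ScxHt. Ryr3, a release channel found more in developing muscle and in other tissues, had 296, 193 and 197 counts. Its Dicer cKO/Control ratio was 0.691 (0.574 to 0.830), the only one of the 26 whose whole interval lay below 1. Ryr3 was also below Control in ScxHt, at 0.625 (0.518 to 0.752), and its Dicer cKO/ScxHt ratio of 1.12 (0.917 to 1.38) was the only one of the 26 with an interval that held 1. In RPKM, Ryr1 exceeded Ryr3 by 38.1 times in Control, 32.0 times in ScxHt and 90.8 times in Dicer cKO.

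Jph1 and Jph2 encode junctophilins, which hold the tubule and reticulum membranes together. Jph1 had 1209, 962 and 2187 counts and Jph2 had 512, 531 and 852, with Dicer cKO/Control ratios of 1.88 (1.75 to 2.02) and 1.73 (1.55 to 1.93). Both were called higher in Dicer cKO, yet in ScxHt Jph1 was at 0.762 (0.700 to 0.831) of Control and Jph2 at 0.994 (0.879 to 1.12). Jsrp1, a junctional protein that binds the voltage sensor and calsequestrin, had 331, 190 and 549 counts and ratios of 1.72 (1.50 to 1.98) and 0.550 (0.458 to 0.659). Trdn, which encodes triadin, the anchor of calsequestrin at the release channel, had 4303, 2953 and 6884 counts and a Dicer cKO/Control ratio of 1.66 (1.60 to 1.73), just under the threshold. Asph was the flattest gene of the group, with 3309, 3281 and 3654 counts and ratios of 1.15 (1.09 to 1.20) and 0.950 (0.905 to 0.997), the latter at 1.02 when scaled by total counts. The Asph locus makes junctin, a triadin partner, and also an enzyme present in many cell types, and gene counts join them. Clvs1 and another gene cover 14.7% of its exonic bases.

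The 4 genes of the reticulum store were higher in Dicer cKO and lower in ScxHt, but to different degrees. Casq1 had 6155 counts in Control, 5681 in ScxHt and 11931 in Dicer cKO, with ratios to Control of 2.01 (1.95 to 2.08) in Dicer cKO and 0.884 (0.853 to 0.917) in ScxHt. Casq2, the calsequestrin of heart and slow fibres, had 743, 408 and 1219 counts, with ratios of 1.70 (1.55 to 1.87) and 0.526 (0.465 to 0.595). Casq1 thus stayed close to Control in the ScxHt library, where Casq2 was called lower. Srl, which encodes sarcalumenin, a calcium-binding glycoprotein of the reticulum, had 4756, 2832 and 7486 counts, and its ScxHt/Control ratio was 0.571 (0.544 to 0.598). Hrc had 2760, 1777 and 4210 counts with ratios of 1.58 (1.51 to 1.66) and 0.617 (0.581 to 0.655). Srl in Dicer cKO/Control was at 1.63 (1.58 to 1.70), so both it and Hrc lay under the upper threshold there.

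The genes of the calcium pumps differed from each other. Atp2a1 had 15720 counts in Control, 12482 in ScxHt and 27150 in Dicer cKO, with ratios to Control of 1.79 (1.76 to 1.83) in Dicer cKO and 0.761 (0.743 to 0.779) in ScxHt. Atp2a2 had 13549, 7547 and 12865 counts, with ratios of 0.986 (0.962 to 1.01) and 0.534 (0.519 to 0.549). In Dicer cKO the difference of Atp2a2 from Control was within counting error, and scaling by total counts put its ratio at 1.03. Atp2a2 also serves as a housekeeping pump in cells outside muscle, and part of its counts can come from them. Rabep2 covers 21.9% of the exonic bases of Atp2a1.

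The peptides that restrain the pump were sparse. Sln (sarcolipin) had 60 counts in Control, 13 in ScxHt and 29 in Dicer cKO, with ratios to Control of 0.208 (0.105 to 0.382) in ScxHt and 0.502 (0.311 to 0.794) in Dicer cKO. Sln was therefore highest in Control, against the order of Atp2a1. Pln (phospholamban), the regulator of SERCA2 in heart and slow fibres, had 37, 22 and 17 counts and a Dicer cKO/Control ratio of 0.477 (0.252 to 0.869). Cep85l and another gene together cover 64.7% of the exonic bases of Pln, so its counts are uncertain. Mrln (myoregulin), the pump regulator described in skeletal muscle, had 22, 20 and 32 counts, and both intervals against Control held 1. In RPKM the 3 peptides lay between 0.412 and 2.80 in all libraries, far under the pumps they act on.

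Pvalb departed furthest from the rest. It had 731 counts in Control, 2460 in ScxHt and 2703 in Dicer cKO, and both ScxCre/+ libraries were far above Control. Its ratio to Control was 3.84 (3.54 to 4.17) in Dicer cKO and 3.22 (2.97 to 3.51) in ScxHt, where it was the only 1 of the 26 above 1. Between the ScxCre/+ libraries the ratio was 1.21 (1.15 to 1.28), among the 6 under the upper threshold there. Camk2a and Camk2b, calcium-dependent kinases, had 702, 654 and 852 counts and 1056, 852 and 1280 counts. Both had a Dicer cKO/Control ratio of 1.26, and in ScxHt they were at 0.893 (0.801 to 0.995) and 0.773 (0.706 to 0.847) of Control.

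All 3 channels of the fibre surface that passed the minimum were lowest in ScxHt, and 2 of them carried the lowest ScxHt/Control ratios of the 26. Clcn1, the chloride channel that stabilises the resting membrane, had 378 counts in Control, 163 in ScxHt and 481 in Dicer cKO, with ratios of 0.413 (0.342 to 0.498) in ScxHt and 1.32 (1.15 to 1.52) in Dicer cKO. Kcnj11, the pore of the ATP-sensitive potassium channel, had 150, 53 and 128 counts, with ratios of 0.339 (0.243 to 0.466) and 0.886 (0.694 to 1.13). In Dicer cKO the interval of Kcnj11 held 1, whereas that of Clcn1 lay above it. Scn4a, the sodium channel of the muscle action potential, had 450, 295 and 637 counts and ratios of 0.628 (0.541 to 0.729) and 1.47 (1.30 to 1.66). Kcna7, a voltage-gated potassium channel, had 31, 32 and 50 counts, under the minimum.

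Neuromuscular junction genes had few counts, and 2 of the 7 passed the minimum. Chrnb1, the beta subunit of the acetylcholine receptor, had 311 counts in Control, 200 in ScxHt and 367 in Dicer cKO, with ratios of 1.23 (1.05 to 1.43) in Dicer cKO and 0.616 (0.513 to 0.738) in ScxHt. Musk, the receptor kinase that gathers acetylcholine receptors under the nerve ending, had 380, 351 and 416 counts, and both its ratios to Control, 1.14 (0.987 to 1.31) and 0.885 (0.763 to 1.03), had intervals that held 1. Neither gene was called in a comparison with Control. Chrna1, the receptor's alpha subunit, had 29, 15 and 51 counts, with ratios of 1.83 (1.14 to 2.99) in Dicer cKO and 0.496 (0.247 to 0.955) in ScxHt. Chrnd, the delta subunit, had 10, 8 and 8 counts, and Ache, the enzyme that clears acetylcholine, had 26, 16 and 39. Chrne, the subunit of adult receptors, had 2, 3 and 0 counts, and Chrng, the fetal subunit, had 1, 0 and 0. No fold is given for Chrne and Chrng, which did not exceed 3 counts. A shift between fetal and adult receptors was not detectable at this depth.

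Dicer cKO against ScxHt, the libraries with the most and the least muscle RNA, gave the largest differences of the 3 comparisons for most of the 26 genes. Casq2 had the highest ratio of the 26 at 3.29 (2.94 to 3.69), followed by Cacna1s at 3.26 (3.07 to 3.46), Clcn1 at 3.25 (2.72 to 3.91), Ryr1 at 3.19 (3.11 to 3.28) and Jsrp1 at 3.18 (2.69 to 3.77). The intervals of these 5 overlapped, so their order is not resolved. The 6 genes under the upper threshold were Ryr3, Pvalb, Asph, Musk, Camk2a and Camk2b. Camk2b, at 1.66, was nearest to it.

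Because muscle RNA itself differed between libraries, each ratio was divided by the median ratio of the 20 muscle fibre genes, which was 1.65 in Dicer cKO/Control, 0.615 in ScxHt/Control and 2.63 in Dicer cKO/ScxHt. The median of the 26 genes was then 0.928, 1.09 and 0.893, so the typical excitation coupling gene differed between libraries about as the median muscle fibre gene did. With the summed muscle counts as reference, in which the most abundant genes weigh more, the median was 1.35 in ScxHt/Control and 0.710 in Dicer cKO/ScxHt. In Dicer cKO/Control, 10 of the 26 counting intervals held the muscle median, 4 lay above it and 12 below. In ScxHt/Control 8 held it, 11 lay above and 7 below, and in Dicer cKO/ScxHt 6 held it, 6 lay above and 14 below. The ratios of the 20 muscle fibre genes themselves ranged from 1.31 to 2.47 in Dicer cKO/Control. Their range was 0.383 to 1.12 in ScxHt/Control and 1.75 to 3.64 in Dicer cKO/ScxHt. The intervals take the muscle median as exact, so missing it does not set a gene apart from the muscle fibre genes. Pvalb stood at 2.33 times the muscle median in Dicer cKO/Control and at 5.24 times in ScxHt/Control. Ryr3 was at 0.420 of it in Dicer cKO/Control and Kcnj11 at 0.539, with Atp2a2 at 0.599, Musk at 0.691 and Asph at 0.697. These values of Dicer cKO/Control, and that of Pvalb in ScxHt/Control, kept their side with either other reference. Those were the summed muscle counts and a muscle list joined with the fast and slow fibre lists. In ScxHt/Control 6 genes did not. Cacna1s, Ryr1 and Casq2 were at 0.854, 0.854 and 0.856 of the muscle median but at 1.06 of the summed muscle counts, and Atp2a2, Jsrp1 and Srl went from 0.868, 0.895 and 0.928 to 1.08, 1.11 and 1.15. In Dicer cKO/ScxHt the sides of Cacna1s, Ryr1, Jsrp1, Casq2, Srl, Clcn1 and Kcnj11 also depended on the reference, as did that of Srl in Dicer cKO/Control.

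The balance of related genes within a library does not depend on scaling. It can depend on the share of muscle RNA where a gene of the pair is also expressed outside muscle, as with Atp2a2 and Ryr3. The part of that share in these balances was not tested. The Atp2a1 to Atp2a2 ratio in RPKM was 2.03 in Control, 2.89 in ScxHt and 3.69 in Dicer cKO. Against Control, the odds ratio of their counts was 1.43 (1.37 to 1.48) in ScxHt and 1.82 (1.76 to 1.88) in Dicer cKO. Atp2a1 was thus higher relative to Atp2a2 in both ScxCre/+ libraries than in Control. Casq1 to Casq2 was 11.6, 19.5 and 13.7 in RPKM, with odds ratios of 1.68 (1.48 to 1.91) in ScxHt and 1.18 (1.07 to 1.30) in Dicer cKO. The fast calsequestrin was thus favoured over Control in the same libraries, here most in ScxHt. Ryr1 to Ryr3 shifted in Dicer cKO with an odds ratio of 2.39 (1.98 to 2.87), whereas the ScxHt interval of 0.697 to 1.02 held 1. Jph1 to Jph2 was lower in ScxHt, at 0.767 (0.660 to 0.892), and not resolved in Dicer cKO, at 1.09 (0.952 to 1.24).

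Among the small genes, Mrln to Sln was 0.410 in RPKM in Control, 1.72 in ScxHt and 1.23 in Dicer cKO. The odds ratios were 4.14 (1.65 to 10.8) in ScxHt and 2.98 (1.41 to 6.44) in Dicer cKO, both with few counts. Sln to Pln was 3.39, 1.24 and 3.57 in RPKM, lower in ScxHt with an odds ratio of 0.367 (0.150 to 0.868). Camk2a to Camk2b stayed between 0.813 and 0.938 in RPKM.

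**Figure D3:**
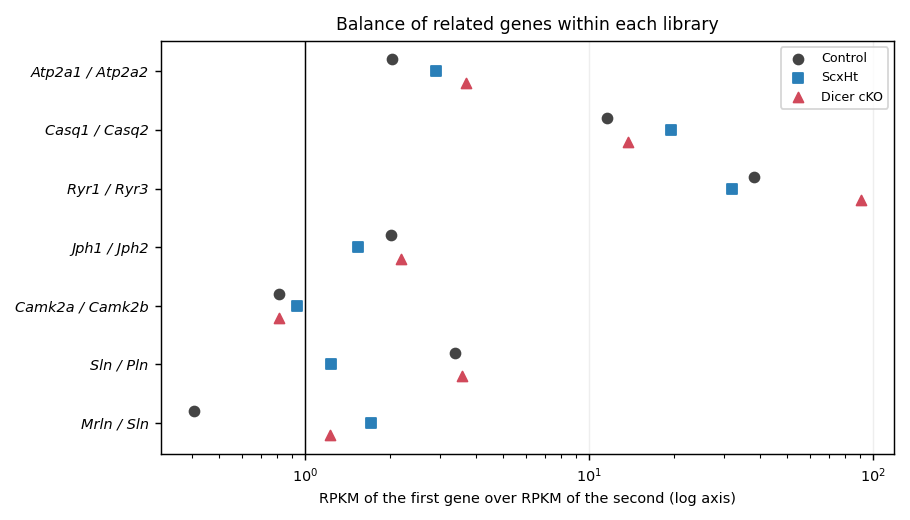
Points give, within each library, the RPKM of the first gene over that of the second on a log axis for 7 pairs. Both ScxCre/+ libraries lie to the right of Control for Atp2a1 / Atp2a2, Casq1 / Casq2 and Mrln / Sln, and Dicer cKO alone is far to the right for Ryr1 / Ryr3, at 90.8.

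Genes that mark fibre types also differed between the libraries. The fast list of 4 genes held Myh4, the myosin of the fastest fibres, with 8125 counts in Control, 39836 in ScxHt and 49811 in Dicer cKO and ratios to Control of 4.70 in ScxHt and 6.37 in Dicer cKO. Myh1, the IIx myosin of the same list, had 42160, 21113 and 53596 counts and ratios of 0.480 and 1.32, and Myh2, the IIa myosin, had 36924, 16146 and 69442 counts and ratios of 0.419 and 1.95. Both were below Control in ScxHt, unlike Myh4 and Pvalb. The 6 slow fibre genes had a median ratio of 0.353 in ScxHt/Control, all 6 below the lower threshold, and of 1.25 in Dicer cKO/Control, with 0 called. In ScxHt/Control 3 of the 4 fast genes were called higher, and Myh1 was lower like the slow genes. How far fibre types set the balances of Atp2a1, Casq1 and Pvalb was not tested.

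**Figure D4:**
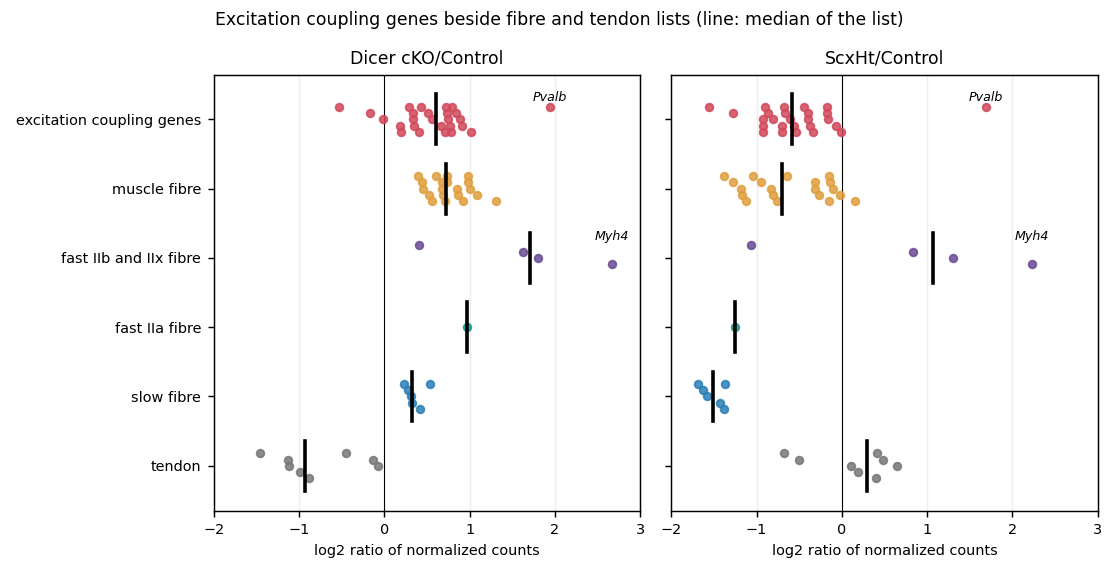
Points are log2 ratios of single genes that passed the minimum, by list, and black lines are list medians, for Dicer cKO/Control at the left and ScxHt/Control at the right. The excitation coupling genes spread around the muscle fibre genes on both sides (medians 0.61 beside 0.72, and -0.58 beside -0.70), while Pvalb, at 1.94 and 1.69, lies below Myh4, at 2.67 and 2.23, and above the other fast fibre genes.

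Markers of other cell types also differed between the libraries. The 8 tendon genes had a median log2 ratio of -0.94 in Dicer cKO/Control, 5 called lower, and of 0.30 in ScxHt/Control with 0 called. The 5 myelinating Schwann cell genes had 231, 301 and 700 CPM in sum. The 6 smooth muscle genes had 485, 523 and 630 CPM in sum. Of the 5 cardiac genes, Nppa and Myl7, which define atrial muscle, were at 0 in all libraries, whereas Myh6 had 3337, 1181 and 3777 counts, Tnni3 36, 52 and 47 and Tnnt2 12, 6 and 12. The part of nerve and smooth muscle in the ratios of Atp2a2, Pln and the junction genes was not tested.

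Other genes of the same pathway, outside the 35, were taken from a fixed list of 35, of which 34 were in the table. In Dicer cKO/Control 32 passed the minimum, 3 were called higher (3.92% of all genes tested) and 1 lower (4.18%), with a median log2 ratio of 0.25. Cav3, caveolin of the muscle membrane, had a ratio of 2.02, Kcnc4, a potassium channel, one of 2.66, and Cacng6, a channel subunit, one of 1.70. In ScxHt/Control 0 of 32 were called higher (3.07% of all genes) and 10 lower (4.73%), with a median of -0.53. In Dicer cKO/ScxHt 16 of the 31 that passed were called higher (7.68% of all genes) and 0 lower (5.68%), with a median of 0.81. All 3 medians had the sign of those of the 35 genes.

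Muscle miRNA features in small RNA-seq of the same tendon samples were a separate readout. Mir1a-1 had 174274 counts in Control, 98934 in ScxHt and 266160 in Dicer cKO, with ratios of 1.75 in Dicer cKO and 0.640 in ScxHt. Mir206 had 310922, 134734 and 408434 counts and ratios of 1.51 and 0.488. Both were highest in Dicer cKO and lowest in ScxHt, the order of most of the excitation coupling genes. Mir133a-1 had 18421, 18367 and 29615 counts, so it was higher in Dicer cKO at 1.84 but at 1.12 in ScxHt. Mir208b and Mir499, intronic in myosin genes, had 256, 137 and 344 counts and 73, 42 and 103 counts.

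In the genome the 35 genes lie on 13 chromosomes of GRCm38, at most 6 on the same one. Chrnd (chr1:87190607-87200070) and Chrng (chr1:87204657-87212694) are neighbours on the plus strand, and Hrc (chr7:45335290-45338974) and Kcna7 (chr7:45405653-45409763) lie on the same strand of chromosome 7. The largest locus is that of Ryr3 (chr2:112631355-113217096). By exon overlap in the GENCODE annotation, 12 of the 35 share exonic bases with another gene and 4 of them, named above, over 10%.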

How the data were processed

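Total RNA of Achilles tendon was sequenced by RNA-seq and small RNA-seq, 1 library of each kind per genotype and no replicates. The authors trimmed adaptors, mapped to GRCm38 (mm10) by TopHat and Bowtie2, and counted genes by HTSeq (versions and strand setting not given in the sources used here). The deposited values were raw counts per gene, and the authors also deposited RPKM, which were used only to compare levels between genes. Depth is given in the text. The members and lists were chosen with earlier results of these data known.

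Counts were divided by DESeq2 (1.42.0) size factors of the 2 libraries compared. A gene needed a mean normalized count (baseMean) over 50, and thresholds were 0.6 and its reciprocal. Ratios carry exact (Clopper-Pearson) 95% intervals and paired genes conditional exact ones, both covering counting error only. Steps were tested on simulated data with counting error only, in which the genes set to differ lay far past the thresholds. Differences between animals and ratios near the thresholds were not covered by it. Alternatives were edgeR (4.0.16) TMM, total counts, other minimums, thresholds and muscle references. All 35 genes are named; genes of other lists were named if highest or lowest in ratio or count, except Nppa, Myl7, Tnni3, Tnnt2 and Cav3, named after their values were seen. Some genes of the other lists are not reported here by name. Promoter windows came from RefSeq.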

Additional observations from a re-analysis of the deposited data

How the results depend on the processing

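No paired analysis was possible because there was 1 library per genotype, and for the same reason no library could be left out. Among the counts of excitation coupling genes, removing the minimum mean count gave 4 lower genes in Dicer cKO/Control, 13 in ScxHt/Control and 1 in Dicer cKO/ScxHt. Of these, Chrne and Chrng in Dicer cKO/Control, Chrng in ScxHt/Control and Chrne in Dicer cKO/ScxHt had 0 counts against 3 or fewer, for which no fold can be read. A minimum of 10 gave 2 lower genes in Dicer cKO/Control, Sln and Pln. Thresholds of 2 and 0.5 left 2 higher genes in Dicer cKO/Control and 2 lower in ScxHt/Control, and asking the whole interval to pass left 4 higher in Dicer cKO/Control. Other scalings gave 10 to 12 higher genes there in place of 9, and 571 to 678 higher among all genes past the minimum in place of 529. Calls over all genes were not counted for the other minimums and thresholds, so those member counts have no background beside them. Total counts moved the median log2 ratio of all genes in ScxHt/Control from 0.02 to 0.12, the split of higher and lower genes from 417 and 641 to 652 and 460, and in Dicer cKO/ScxHt from 1041 and 770 to 910 and 966. With summed muscle counts as reference the median relative ratio was 1.35 in ScxHt/Control and 0.710 in Dicer cKO/ScxHt. The median log2 ratio of the excitation coupling genes kept its sign under every scaling and minimum tried, and the largest move of a single ratio under another scaling was 1.07 times. Total counts put Asph in ScxHt/Control at 1.02 in place of 0.950. Depth limits the peptides and receptor subunits with few counts.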
